A study of Mus musculus with 14 samples.

Results

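The 7 genes described here encode the cell-surface enzymes, the receptor and the clearing enzymes through which a T cell makes, senses and removes extracellular adenosine, together with the NAD-consuming surface enzyme Cd38 and the surface peptidase Dpp4. They were chosen by name (Nt5e, Entpd1, Adora2a, Ada, Adk, Cd38 and Dpp4), with earlier results of these data known. All 7 were among the 24091 genes of the deposited count table, and all 7 had enough reads to be among the 12248 genes tested.

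T cells were sorted from the spleens of mice with chronic myelogenous leukaemia (CML), at 200000 cells per sample, and a separate mRNA-seq library was made from each mouse. All mice were 6 to 10 weeks old, on the C57Bl/6j (CD45.2) background, and carried the SCLtTA/BCR-ABL transgenes, in which tTA under an SCL control region switches on the BCR-ABL oncogene in haematopoietic cells when tetracycline is withdrawn; BCR-ABL had been induced for 3 weeks in every mouse of both groups. The chronic phase group (CP CML) was Mir142+/+BCR-ABL (n = 8) and the blast crisis group (BC CML) was Mir142-/-BCR-ABL (n = 6), with miR-142 lost from the germ line and therefore from every cell and not from T cells alone. No mouse without BCR-ABL was analysed here, so the comparison is of the microRNA genotype within leukaemic mice.

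Extracellular ATP released by stressed or dying cells alerts immune cells, and T cells carry surface enzymes that turn this signal into its opposite. CD39, encoded by Entpd1, removes phosphates from ATP and ADP to leave AMP, and CD73, encoded by Nt5e, turns AMP into adenosine. Adenosine then raises cyclic AMP through the receptor encoded by Adora2a and dampens T cell activation, until adenosine deaminase (Ada) converts it to inosine or adenosine kinase (Adk) returns it to AMP inside the cell.

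Each library held between 15703702 and 19914531 counted reads in CP CML and between 16145537 and 19399720 in BC CML. The deleted gene Mir142 had 302 to 650 reads in the CP CML mice and 0 in all 6 BC CML mice, which allows up to 3 reads per library. Levels are given as CPM, reads per 1000000 reads of the library after scaling between libraries. Cd3e, a chain of the T cell receptor complex, was at 404.1 ± 25.6 CPM (SD, n = 8) in the CP CML mice, against 409.9 ± 18.1 (SD, n = 6) for BC CML. Over the 7 T cell markers tested, 3 were higher in BC CML, 1 was lower and 3 did not pass, and Cd3g, another chain of the complex, was 1.51-fold higher. Markers of other cells were present beside them. In bulk samples of this kind, fewer cells of a type and less RNA per cell cannot be told apart. After the genotype, the names of the count columns carry a number that differs between the groups and is shared within each, and what it stands for is not given. Any difference it marks and the genotype cannot be told apart.

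Of the 7 genes, 4 were higher in BC CML (Entpd1, Cd38, Nt5e and Adora2a), 1 was lower (Adk) and 2 did not pass the test (Ada and Dpp4), with edgeR's quasi-likelihood test and a Benjamini-Hochberg adjusted p below 0.05 as the threshold. The groups differed at many genes, so these counts are read against the whole table, in which 65.2% of the genes tested passed, 32.6% as higher and 32.7% as lower in BC CML. The mice of the groups did not overlap for 5 of the 7 genes, against 36.9% of all tested genes. Called changes with a log2 size of 1 or more were those of Entpd1, Cd38 and Adk, against 12.9% of all tested genes. The median log2 fold change of BC CML over CP CML was 0.36 over the 7 genes and -0.01 over all tested genes, and the median size of the change, whatever its direction, was 0.64 and 0.28.

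**Figure D1:**
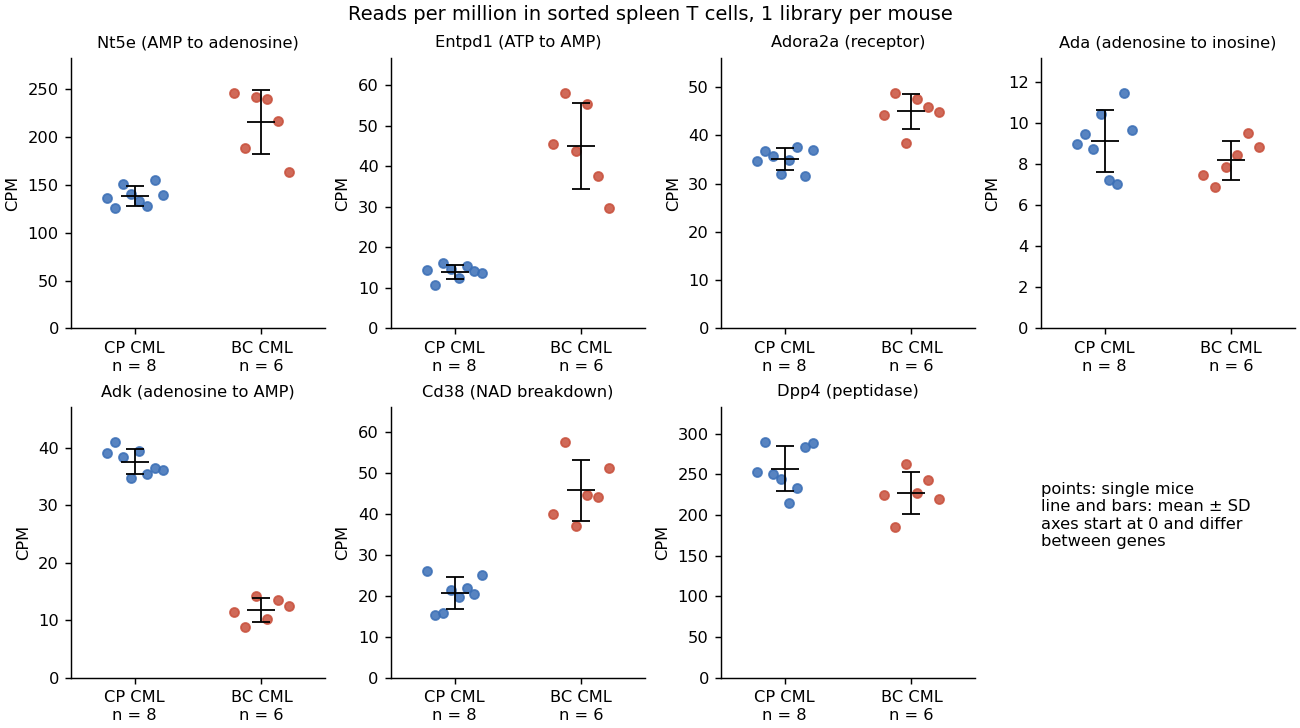
Level (CPM) of each of the 7 genes in every mouse (points), with the group mean and SD (line and bars), for CP CML (blue, n = 8) and BC CML (red, n = 6). Every BC CML mouse lies above every CP CML mouse for Nt5e, Entpd1, Adora2a and Cd38 and below every one for Adk, while the groups overlap for Ada and Dpp4.

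The enzymes that produce adenosine were both higher in BC CML, and Entpd1 rose more than Nt5e. Entpd1 is listed on chromosome 19 of mm10, plus strand, from 40612366 to 40741602. Its level was lowest at 10.8, median 14.3 and highest at 16.2 CPM in CP CML, and lowest at 29.6, median 44.7 and highest at 58.0 CPM in BC CML. The lowest BC CML mouse was well above the highest CP CML mouse. The means were 13.9 ± 1.70 CPM (SD, n = 8) and 45.0 ± 10.7 CPM (SD, n = 6), a 3.22-fold rise (log2 fold change 1.69, SE 0.13, 95% interval 1.41 to 1.96, adjusted p = 1.3e-08 by edgeR's quasi-likelihood test). These values rest on 177 to 317 reads per CP CML library and 576 to 1058 per BC CML library. Of all tested genes, 94.6% changed by less than Entpd1, in either direction.

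Nt5e is on chromosome 9, plus strand, from 88327609 to 88372089. It was lowest at 125.4, median 137.8 and highest at 154.6 CPM in CP CML, and lowest at 163.6, median 227.9 and highest at 245.4 CPM in BC CML. The groups did not overlap, but the fold between them was smaller than for Entpd1, and BC CML replicates 6 and 2 (163.6 and 188.7 CPM) sat below the other 4 BC CML mice (216.2 to 245.4 CPM). The means were 138.4 ± 10.1 CPM (SD, n = 8) and 215.8 ± 33.4 CPM (SD, n = 6), a 1.56-fold rise (log2 fold change 0.64, SE 0.08, 95% interval 0.47 to 0.81, adjusted p = 3.5e-06 by edgeR's quasi-likelihood test). The mice with less Nt5e were not uniformly those with less Entpd1. BC CML replicate 6 had the lowest level of both genes in its group, whereas BC CML replicate 2 had the highest Entpd1, at 58.0 CPM, and the second-lowest Nt5e.

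Because the 2 enzymes act in sequence, their levels were also compared per length of gene, as RPKM (CPM divided by the length of the gene in kilobases). Nt5e exceeded Entpd1 in every mouse of both groups. The ratio of Nt5e to Entpd1 was 7.63 to 10.6 in CP CML (median 9.01) and 2.96 to 5.22 in BC CML (median 4.96), so that the groups did not overlap in the ratio either. In BC CML the mRNA of the enzyme acting on ATP therefore came closer to that of the enzyme acting on AMP, without reaching it in any mouse.

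The receptor gene Adora2a rose by the smallest amount of the 4. It is on chromosome 10, plus strand, from 75316877 to 75334792 and was the one adenosine receptor gene with appreciable reads in these cells. Its level was lowest at 31.5, median 35.3 and highest at 37.7 CPM in CP CML, and lowest at 38.3, median 45.4 and highest at 48.7 CPM in BC CML. The groups did not overlap, although the lowest BC CML mouse (replicate 3) lay just above the highest CP CML mouse. The means were 35.0 ± 2.27 CPM (SD, n = 8) and 44.9 ± 3.64 CPM (SD, n = 6), a 1.28-fold rise (log2 fold change 0.36, SE 0.06, 95% interval 0.24 to 0.48, adjusted p = 2.6e-05 by edgeR's quasi-likelihood test). Among all tested genes, 59.4% changed by less. The other adenosine receptor genes were too low to be tested. Adora1 had no read in any of the 14 libraries, which allows up to 3 reads in each, Adora2b reached at most 0.463 CPM and Adora3 at most 0.210 CPM.

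Adora2a was also the only one of the 7 genes whose 3′UTR held a match to miR-142, the microRNA that separates the groups. The mature arms (RefSeq, GRCm38.p6, plus strand of chromosome 11) are shown with the seed, bases 2 to 8, in capitals, since a microRNA finds its targets mainly through that stretch. The 5p arm lies from 87756867 to 87756887 and the 3p arm from 87756903 to 87756925.
mmu-miR-142a-5p: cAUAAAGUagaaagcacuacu
mmu-miR-142a-3p: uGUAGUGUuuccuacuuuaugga
The longest annotated 3′UTR of each gene was searched for 8-base matches (ACTTTATA for the 5p arm and ACACTACA for the 3p arm) and for the 7-base matches within them. The Adora2a 3′UTR, of 848 bases, held 1 match of 7 bases to the 3p arm at its bases 343 to 349, and it is shown in capitals within its surroundings (chr10:75334269-75334295, plus strand, GRCm38).
Adora2a: tcctgctaatACACTACtctccccaga
The 3′UTRs of the other 6 genes held no such match to either arm, at lengths of 481 (Ada), 631 (Adk), 1775 (Nt5e), 2032 (Cd38), 2545 (Dpp4) and 2573 (Entpd1) bases. Over the 11509 tested genes with an annotated 3′UTR, 12.11% held a 7- or 8-base match to the 3p arm and 23.48% to the 5p arm. A match is a description of the letters, and whether miR-142 binds there was not tested.

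The genes that clear adenosine moved differently from each other. Adk is on chromosome 14, plus strand, from 21052574 to 21448569. It was lowest at 34.8, median 37.4 and highest at 41.0 CPM in CP CML, and lowest at 8.85, median 11.96 and highest at 14.2 CPM in BC CML. The highest BC CML mouse was thus far below the lowest CP CML mouse. The means were 37.6 ± 2.21 CPM (SD, n = 8) and 11.8 ± 2.03 CPM (SD, n = 6), a 3.18-fold lower level in BC CML (log2 fold change -1.67, SE 0.09, 95% interval -1.85 to -1.49, adjusted p = 2.2e-11 by edgeR's quasi-likelihood test). The reads behind these values were 574 to 752 per library in CP CML and 142 to 271 in BC CML. Of all tested genes, 110 fell by more than Adk.

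Ada, on chromosome 2, minus strand, from 163726571 to 163750239, did not pass the test. It was lowest at 7.03, median 9.23 and highest at 11.5 CPM in CP CML, and lowest at 6.92, median 8.17 and highest at 9.53 CPM in BC CML. The groups overlapped over most of their range. The log2 fold change was -0.16 (SE 0.11, 95% interval -0.39 to 0.08, adjusted p = 0.23 by edgeR's quasi-likelihood test), so a fall of 0.39 and a rise of 0.08 on the log2 scale both lie at the ends of the interval. On the RPKM scale Adk exceeded Ada in every CP CML mouse (ratio 1.49 to 2.55, median 2.03) and fell below it in every BC CML mouse (0.566 to 0.845, median 0.663).

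Cd38, an ectoenzyme that breaks down NAD to ADP-ribose and cyclic ADP-ribose and is known as a marker of activated lymphocytes, was higher in BC CML. It is on chromosome 5, plus strand, from 43868809 to 43912374. Its level was lowest at 15.3, median 20.8 and highest at 26.0 CPM in CP CML, and lowest at 36.9, median 44.2 and highest at 57.3 CPM in BC CML. The groups did not overlap, and the highest CP CML mice were replicates 1 and 8 at 26.0 and 24.9 CPM. The means were 20.6 ± 3.84 CPM (SD, n = 8) and 45.6 ± 7.50 CPM (SD, n = 6), a 2.21-fold rise (log2 fold change 1.14, SE 0.12, 95% interval 0.88 to 1.41, adjusted p = 5.7e-07 by edgeR's quasi-likelihood test). Of all tested genes, 89.3% changed by less.

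Dpp4 encodes CD26, a peptidase that trims a dipeptide from the start of chemokines and peptide hormones and that is carried by many resting T cells. It is on chromosome 2, minus strand, from 62330073 to 62412231. It was lowest at 214.9, median 251.4 and highest at 289.1 CPM in CP CML, and lowest at 185.5, median 225.4 and highest at 262.6 CPM in BC CML. The groups overlapped, and 1 BC CML mouse lay below all CP CML mice. The log2 fold change was -0.18 (SE 0.08, 95% interval -0.34 to -0.02) with an adjusted p of 0.0502 by edgeR's quasi-likelihood test, just on the far side of the threshold. The adjusted p was 0.0412 with edgeR's likelihood ratio test and 0.0421 with DESeq2. With the quasi-likelihood test and scaling by library size only it was 0.0451, and it also passed in 4 fits that left out 1 mouse (CP CML replicate 5 or 6, or BC CML replicate 3 or 5; adjusted p 0.0163 to 0.0447), so the call for Dpp4 turned on small choices of several kinds.

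**Figure D2:**
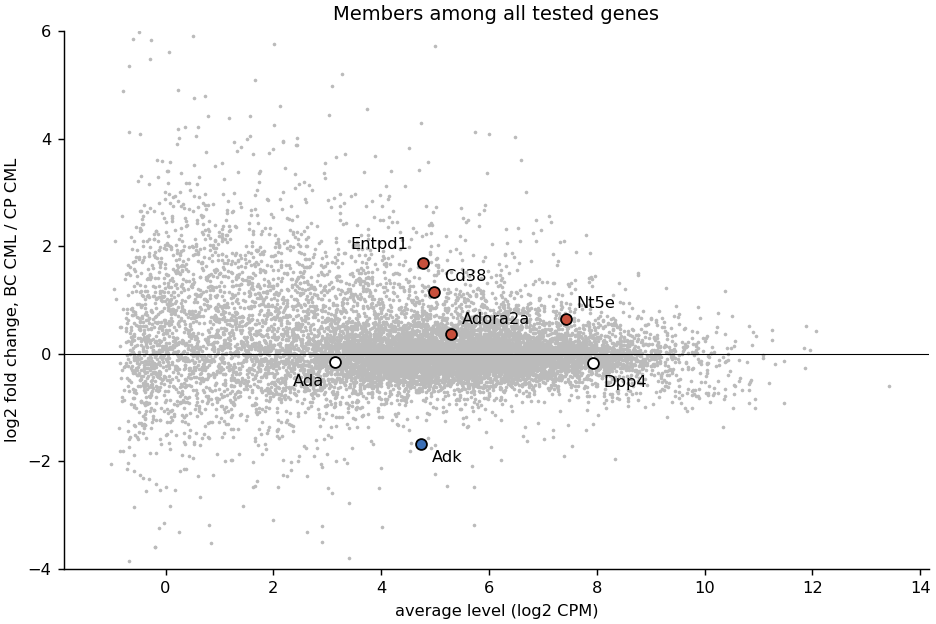
Log2 fold change of BC CML over CP CML against the average level (log2 CPM) for all 12248 tested genes (grey), with the 7 genes as large points (red, higher; blue, lower; white, not past an adjusted p of 0.05); 20 genes lie outside the vertical axis. Entpd1 (1.69) and Adk (-1.67) lie at about the same average level on opposite sides of 0, with 94.6% and 94.5% of tested genes changing by less. Ada (-0.16) and Dpp4 (-0.18) lie near 0.

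The order of the 7 genes per length changed between the groups. In CP CML the mean RPKM was 40.2 ± 4.29 for Dpp4, 28.8 ± 2.11 for Nt5e, 13.5 ± 0.873 for Adora2a, 10.4 ± 0.610 for Adk, 6.86 ± 1.28 for Cd38, 5.40 ± 0.887 for Ada and 3.19 ± 0.389 for Entpd1 (SD, n = 8). That order held in 6 of the 8 mice, and Cd38 and Ada, the pair whose levels overlapped, changed places in the other 2. In BC CML the mean RPKM was 45.0 ± 6.95 for Nt5e, 35.4 ± 4.02 for Dpp4, 17.3 ± 1.40 for Adora2a, 15.2 ± 2.49 for Cd38, 10.3 ± 2.44 for Entpd1, 4.84 ± 0.562 for Ada and 3.26 ± 0.560 for Adk (SD, n = 6). That order held in 4 of the 6 mice, with Nt5e and Dpp4 exchanged in 1 and Adora2a and Cd38 exchanged in 1. Across mice, the levels of these pairs and those of Cd38 and Entpd1 overlapped in BC CML. Entpd1 was the lowest of the 7 in 8 of 8 CP CML mice, and Adk was the lowest in 6 of 6 BC CML mice. The ratio of Entpd1 to Adk was 0.218 to 0.357 in CP CML (median 0.317) and 1.96 to 5.43 in BC CML (median 2.94).

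Adk and Entpd1, the genes with the largest fall and the largest rise of the 7, each start next to another gene that is read in the opposite direction. Ap3m1, which encodes a subunit of the AP-3 trafficking adaptor, starts 132 bases from Adk, and Tctn3, which encodes a protein of the cilium base, starts 151 bases from Entpd1. The promoter windows are printed from 250 bases before to 50 bases after the start of Adk (chr14:21052324-21052623) and of Entpd1 (chr19:40612116-40612415), both on the plus strand of GRCm38.p6 from RefSeq. Capitals mark the 131 bases between the starts of Ap3m1 and Adk and the 150 bases between the starts of Tctn3 and Entpd1.
Adk: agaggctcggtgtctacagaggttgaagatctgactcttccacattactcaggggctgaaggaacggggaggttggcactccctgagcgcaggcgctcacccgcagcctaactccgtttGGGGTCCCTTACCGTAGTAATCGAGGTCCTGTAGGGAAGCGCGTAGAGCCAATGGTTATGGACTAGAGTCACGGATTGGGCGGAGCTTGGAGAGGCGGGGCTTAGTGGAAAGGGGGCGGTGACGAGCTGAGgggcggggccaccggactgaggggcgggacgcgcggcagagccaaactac
Entpd1: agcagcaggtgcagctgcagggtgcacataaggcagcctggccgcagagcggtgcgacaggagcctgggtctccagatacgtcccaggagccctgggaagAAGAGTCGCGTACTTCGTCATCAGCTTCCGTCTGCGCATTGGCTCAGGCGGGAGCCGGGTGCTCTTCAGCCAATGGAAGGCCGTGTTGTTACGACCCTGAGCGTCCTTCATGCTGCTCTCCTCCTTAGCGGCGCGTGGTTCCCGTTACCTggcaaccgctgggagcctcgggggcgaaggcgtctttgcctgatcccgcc
On the far side of the 131 bases from Adk, Ap3m1 was at 93.6 ± 4.02 CPM (SD, n = 8) for CP CML mice and 97.5 ± 5.94 CPM (SD, n = 6) for BC CML mice, with overlapping groups (log2 fold change 0.06, SE 0.04, adjusted p = 0.22 by edgeR's quasi-likelihood test). On the far side of the 150 bases from Entpd1, Tctn3 was at 10.1 ± 1.08 CPM (SD, n = 8) and 12.5 ± 1.85 CPM (SD, n = 6), a rise that passed the same test but was smaller than that of Entpd1 (log2 fold change 0.31, SE 0.10, adjusted p = 0.011). In neither pair did the neighbour change by an amount near that of the member.

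RefSeq gave 2 starts for both genes, and the second lay further into the gene (windows chr14:21075902-21076201 for Adk and chr19:40659520-40659819 for Entpd1). The counts are summed per gene, so reads from the different starts cannot be told apart. The windows at the starts of Nt5e, Ada, Entpd1 and Adk held 20 to 23 CpG pairs each, that of Cd38 held 1 and that of Dpp4 held 4, against a median of 7 over the 32544 promoter windows of the table. The second window held 33 CpG pairs for Adk and 10 for Entpd1, and no window was given for Adora2a. The GC box letters GGGCGG, searched on both strands, occurred 4 times in each Adk window, 4 times in that of Nt5e and 2 times in that of Ada, and 35.884% of all windows held them. Of 5 other motifs searched, the ETS letters CCGGAAG (8.914% of all windows) occurred 2 times for Ada, the TATA letters TATAAA (13.569%) once for Dpp4 and the cyclic AMP response letters TGACGT (7.553%) once in the second window of Entpd1. The AP-1 letters TGANTCA (7.789%) and the TCF/LEF letters CTTTGA (16.024%) were in none of these 8 windows.

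**Figure D3:**
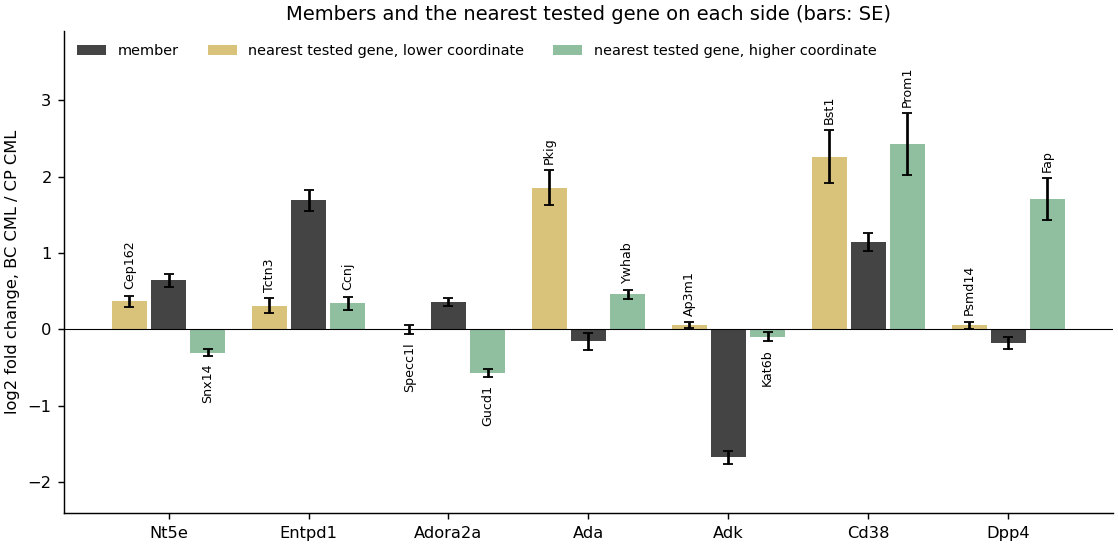
Log2 fold change of BC CML over CP CML with its SE for each of the 7 genes (dark bars) and for the nearest tested gene at a lower (yellow) and a higher (green) coordinate. Ap3m1 (0.06) and Kat6b (-0.09) stand near 0 beside Adk (-1.67), whereas the genes on both sides of Cd38 rose with it.

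Cd38 and Dpp4 lie beside relatives with which they share an origin by gene duplication. Bst1 (CD157), the other ADP-ribosyl cyclase gene of the mouse, is 25341 bases from Cd38 and was at 0.339 ± 0.195 CPM (SD, n = 8) for CP CML mice and 1.60 ± 0.588 CPM (SD, n = 6) for BC CML mice (log2 fold change 2.26, SE 0.35, adjusted p = 1.7e-05 by edgeR's quasi-likelihood test). Its groups overlapped, at 2 to 11 reads per CP CML library and 12 to 41 per BC CML library. Fap, a surface peptidase best known from fibroblasts, is 88705 bases from Dpp4 and rose from 0.752 ± 0.225 CPM (SD, n = 8) to 2.48 ± 1.16 CPM (SD, n = 6) without overlap (log2 fold change 1.71, SE 0.27, adjusted p = 2.6e-05). Both relatives thus moved up from levels far below those of the members, and Fap rose where Dpp4 did not pass the test. On the other side of Cd38, Prom1, a membrane protein gene known from progenitor cells, rose from 1.10 ± 0.847 CPM (SD, n = 8) to 5.85 ± 2.51 CPM (SD, n = 6), with overlapping groups (log2 fold change 2.43, SE 0.40, adjusted p = 7.8e-05). Pkig, an inhibitor of cyclic AMP-dependent protein kinase that ends 413 bases from the end of Ada, rose from 1.60 ± 0.663 CPM (SD, n = 8) to 5.79 ± 1.64 CPM (SD, n = 6) without overlap (log2 fold change 1.86, SE 0.23, adjusted p = 1.7e-06).

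The other genes of the pathway were taken from lists of 76 genes, of which 74 were in the table and 54 were tested. Of the 54, 20 were higher and 15 lower in BC CML and 19 did not pass the test, a share near that of all tested genes, and their median log2 fold change was 0.02. The mice of the groups did not overlap for 23 of the 54, against 36.9% of all tested genes. All named changes below are by edgeR's quasi-likelihood test, and the count of each list stands against 65.2% of all tested genes that passed, 32.6% as higher and 32.7% as lower, so that nothing particular to a list is read from it.

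Among the other ecto-nucleotidases, 3 of the 4 tested passed, 2 as higher and 1 as lower. Enpp1, which splits ATP directly to AMP and pyrophosphate and so bypasses CD39, was at 21.6 ± 2.04 CPM (SD, n = 8) for CP CML mice and 15.3 ± 2.04 CPM (SD, n = 6) for BC CML mice, a fall without overlap (log2 fold change -0.51, SE 0.08, adjusted p = 4.4e-05). Of the 3 ENTPD enzymes of the secretory pathway and lysosome tested, 2 passed the test, a share near that of all tested genes, and both were lower in BC CML. Entpd5, which hydrolyses UDP in the endoplasmic reticulum, fell from 136.4 ± 7.47 CPM (SD, n = 8) to 74.3 ± 5.25 CPM (SD, n = 6; log2 fold change -0.88, SE 0.05, adjusted p = 5.0e-11).

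Of 9 nucleotide receptor and ATP release genes tested, 5 passed the test, against 65.2% of all tested genes, and these were higher in BC CML. P2ry12 and P2ry13, receptors for ADP, rose from 1.05 ± 0.423 to 3.55 ± 1.51 CPM (log2 fold change 1.74, SE 0.31, adjusted p = 9.2e-05) and from 3.13 ± 0.838 to 8.35 ± 3.54 CPM (log2 fold change 1.41, SE 0.25, adjusted p = 0.00014), as mean ± SD with n = 8 and n = 6. P2rx7, the ATP-gated channel of T cells, was far more abundant, at 115 ± 18.5 CPM in CP CML and 108 ± 25.2 CPM in BC CML, and did not pass the test (log2 fold change -0.09, SE 0.15, adjusted p = 0.60).

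Of 16 intracellular purine enzymes tested, 9 passed (3 higher and 6 lower), a smaller share than that of all tested genes. Ampd3, an AMP deaminase, fell from 19.6 ± 2.09 CPM (SD, n = 8) to 9.31 ± 1.39 CPM (SD, n = 6; log2 fold change -1.07, SE 0.09, adjusted p = 2.0e-08), the largest fall on this list. Ahcy, which releases adenosine from S-adenosylhomocysteine, was at 40.2 ± 1.69 and 35.9 ± 4.37 CPM, with a log2 fold change of -0.16 (SE 0.06, adjusted p = 0.036), a call lost in 6 of the 14 fits that left out 1 mouse (adjusted p 0.0522 to 0.0923). Pnp, which acts after Ada on inosine, was at 26.2 ± 3.17 and 24.0 ± 2.58 CPM and did not pass the test (log2 fold change -0.13, SE 0.08, adjusted p = 0.18). None of these changes approached that of Adk. Of 4 nucleoside transporters tested, 1 was higher and 1 was lower. Slc28a2, the concentrative transporter gene and the most abundant of the list, fell from 233.6 ± 17.0 to 146.0 ± 11.2 CPM without overlap (log2 fold change -0.68, SE 0.06, adjusted p = 9.1e-09), and Slc29a3 rose without overlap (log2 fold change 0.22, SE 0.05, adjusted p = 0.00073), both named after their values were seen. The equilibrative transporter gene Slc29a1 was at 33.7 ± 3.02 and 33.2 ± 4.10 CPM, with a log2 fold change of -0.02 (95% interval -0.18 to 0.14).

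Of 14 NAD and ADP-ribosylation genes tested, 11 passed (6 higher and 5 lower), beside 65.2% of all tested genes. Art2a-ps rose most, from 1.40 ± 0.351 CPM (SD, n = 8) to 9.48 ± 1.86 CPM (SD, n = 6; log2 fold change 2.75, SE 0.16, adjusted p = 1.2e-10), and Art2b, which encodes a surface ADP-ribosyltransferase that competes with CD38 for NAD, rose from 59.5 ± 18.3 to 131 ± 18.5 CPM (log2 fold change 1.14, SE 0.20, adjusted p = 0.00025). These paralogs are alike in sequence, so how reads were split between them is uncertain, and Art2b was named after its values were seen. Nmnat2 and Naprt, enzymes of NAD synthesis, fell, from 5.89 ± 1.21 to 1.97 ± 0.583 CPM (log2 fold change -1.57, SE 0.19, adjusted p = 1.1e-06) and from 2.32 ± 0.510 to 1.38 ± 0.286 CPM (log2 fold change -0.75, SE 0.19, adjusted p = 0.0019). Of the other genes of NAD synthesis, Nampt rose from 54.0 ± 2.11 to 83.3 ± 9.71 CPM (log2 fold change 0.62, SE 0.06, adjusted p = 3.8e-08). Nmnat1 and Nmrk1 rose too (log2 fold changes 0.62 and 0.49). Nadsyn1 fell (log2 fold change -0.30, SE 0.10, adjusted p = 0.011), and Nmnat3 and Qprt did not pass the test. All of these other genes were also named after their values were seen. Of the 4 relatives of Dpp4 tested, 3 passed, beside 65.2% of all tested genes, and were higher, among them the intracellular peptidase Dpp8 (205 ± 7.11 to 278 ± 5.51 CPM, log2 fold change 0.44, SE 0.03, adjusted p = 1.2e-09). Dpp9 was at 74.2 ± 7.70 and 69.2 ± 2.43 CPM and did not pass the test (log2 fold change -0.10, SE 0.06, adjusted p = 0.14).

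**Figure D4:**
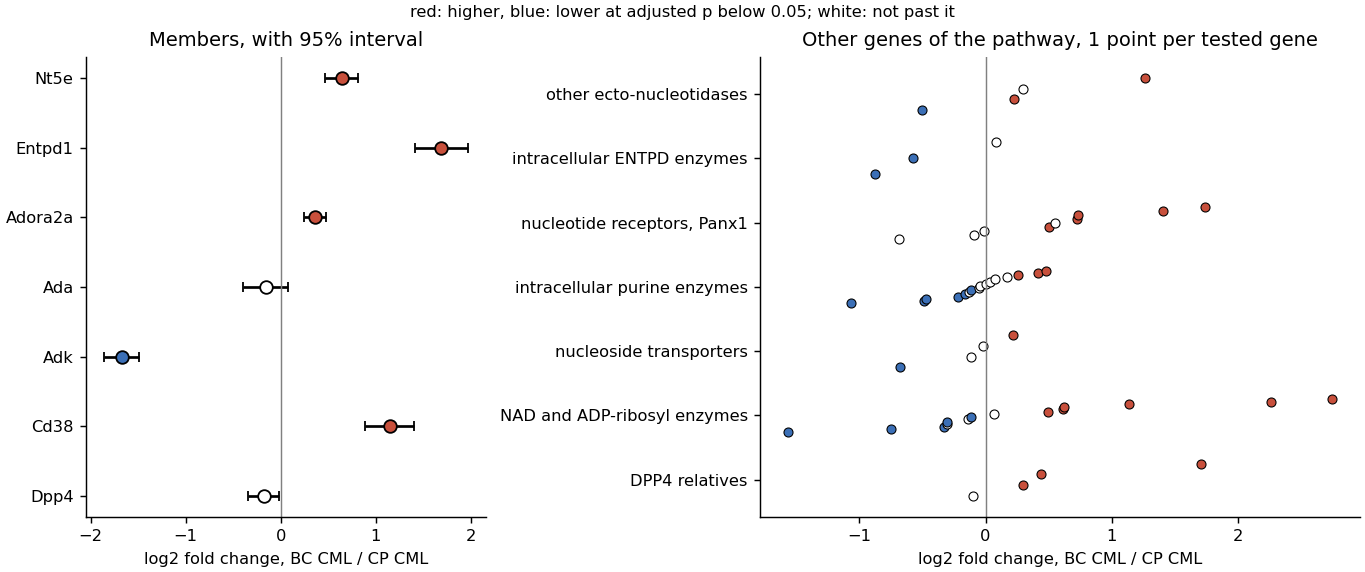
Log2 fold change of BC CML over CP CML for the 7 genes with 95% intervals (left) and for the 54 other tested genes of the pathway by list (right; 1 point per gene). Red marks higher, blue lower and white not past an adjusted p of 0.05. The intervals of Entpd1 (1.41 to 1.96) and Adk (-1.85 to -1.49) lie farthest from 0 on either side, and each list on the right holds both coloured and white points.

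Nt5e and Entpd1 are known as surface markers of regulatory T cells in the mouse, and the genes listed for that lineage moved in both directions. Foxp3 was at 94.2 ± 8.14 CPM (SD, n = 8) for CP CML mice and 28.5 ± 4.32 CPM (SD, n = 6) for BC CML mice without overlap (log2 fold change -1.73, SE 0.08, adjusted p = 1.4e-11 by edgeR's quasi-likelihood test). Ctla4 fell likewise, from 65.5 ± 9.42 to 25.9 ± 5.89 CPM (log2 fold change -1.34, SE 0.13, adjusted p = 2.9e-07). Ikzf2 and Tnfrsf18 rose, from 202.8 ± 22.9 to 311.6 ± 62.6 CPM (log2 fold change 0.62, SE 0.11, adjusted p = 0.00018) and from 51.2 ± 4.33 to 63.1 ± 4.34 CPM (log2 fold change 0.30, SE 0.06, adjusted p = 0.00018). Over 9 regulatory T cell genes tested, 2 were higher, 3 lower and 4 did not pass, and their summed level was 639.4 to 726.6 CPM in CP CML and 569.1 to 759.3 CPM in BC CML. Ikzf2 was the most abundant of the 9 in both groups, so its rise weighs more in this sum than the fall of Foxp3. All 8 genes of a naive T cell list were lower, with summed levels of 4919 to 6275 and 2702 to 3875 CPM. By flow cytometry, the study found smaller shares of naive and regulatory T cells and larger shares of effector T cells in the spleens of BC CML mice. In its single-cell data it lists Entpd1 and Cd38 among the markers of a CD4 effector cluster and an exhausted T cell cluster, both increased in BC CML. Whether the members' changes come with a change in the mix of T cell subsets was not tested here.

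Cd38 and Entpd1 are also known from B cells, myeloid cells and NK cells, and markers of these cells moved with the groups. Of 8 B cell markers, 6 were higher in BC CML, and their summed level was 60.7 to 179.7 CPM in CP CML and 103.1 to 510.6 CPM in BC CML, with overlap. CP CML replicates 1 and 8 had the highest sums of their group (179.7 and 158.2 CPM) and its highest Cd38. BC CML replicates 6 and 2 likewise had the highest sums (510.6 and 325.3 CPM) and the highest Cd38 (51.2 and 57.3 CPM). Entpd1 differed, as replicate 6 had the lowest level of the BC CML mice (29.6 CPM) and replicate 2 the highest (58.0 CPM). Of 10 myeloid markers, 9 were higher (61.7 to 618.7 against 727.9 to 1897 CPM). All 5 tested NK cell markers of the 6 listed were higher (118.4 to 151.7 against 362.5 to 504.6 CPM), each without overlap. Eomes, the most abundant of them, rose from 77.6 ± 14.2 CPM (SD, n = 8) to 256.7 ± 25.4 CPM (SD, n = 6). The study also lists Eomes among the markers of a CD8 central memory T cell cluster, increased in BC CML. The NK cell sum therefore does not separate NK cells from T cells.

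The myeloid and NK cell sums did not overlap between groups. The same markers moved with the rises of genes at low levels given above, such as P2ry12, P2ry13, Bst1, Fap and Prom1, and the part of any of these cells in the results was not tested.

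**Figure D5:**
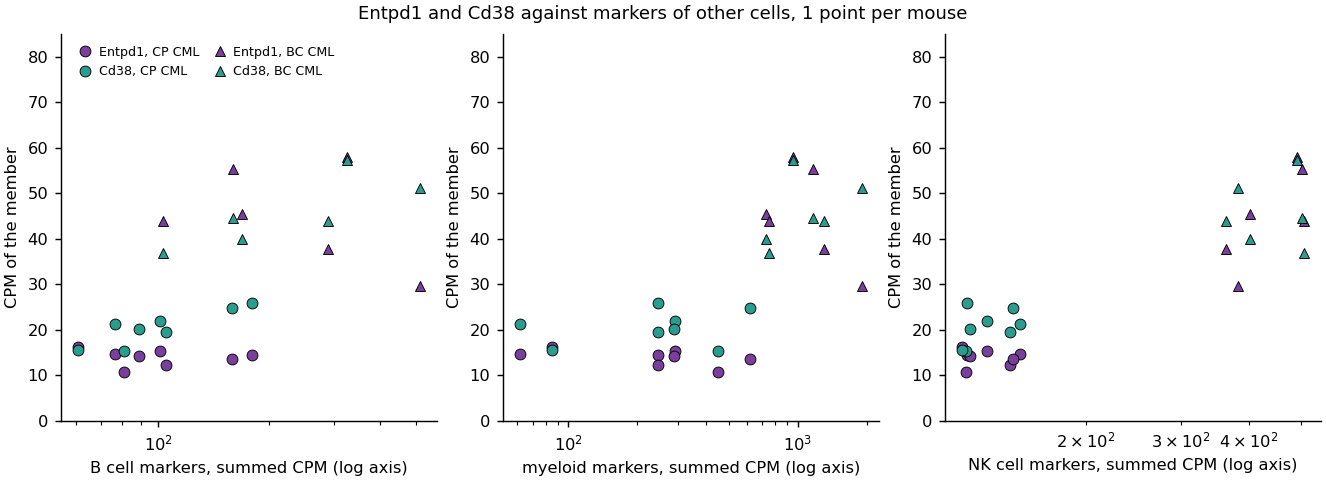
Entpd1 (purple) and Cd38 (green) in CPM against the summed CPM of markers of B cells, myeloid cells and NK cells (log axes), 1 point per mouse, for CP CML (circles) and BC CML (triangles). At B cell sums between 103.1 and 179.7 CPM 3 mice of each group are present, and the myeloid and NK cell sums do not overlap between groups. Eomes, the most abundant gene of the NK cell sum, is also listed by the study as a marker of T cells. Within each group the mice with the highest B cell sums also had the highest Cd38 (CP CML replicates 1 and 8, BC CML replicates 2 and 6).

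The genes whose level followed each member most closely from mouse to mouse were found from the deviations of log2 CPM from the group mean, over 14 mice and 11546 genes with a mean of at least 1 CPM, and the correlations are given as a description. Entpd1 was followed most closely by Il2rb, a receptor chain for interleukin-2 and interleukin-15 (r = 0.95), which was also higher in BC CML (518.2 ± 31.5 to 953.7 ± 120.2 CPM, log2 fold change 0.88). Nt5e was followed by the metalloprotease gene Adam19 (r = 0.95), whose mean did not pass the test between groups (log2 fold change -0.10). Adk was followed by Ahcy (r = 0.91 over all mice, 0.62 within CP CML and 0.95 within BC CML), the gene of the enzyme that yields adenosine in the methylation cycle. Cd38 was followed by Art2a-ps (r = 0.89), Ada by Fam91a1 (r = 0.92) and Adora2a by Ccrl2 (r = 0.85). Among the members themselves, the strongest relation within groups was an inverse one between Entpd1 and Adk (r = -0.69), and the next was between Ada and Dpp4 (r = 0.65). Each of these genes was picked as the highest of all those compared, and depth and cell mix are shared by all genes of a library.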

How the data were processed

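Spleen T cells of 8 CP CML and 6 BC CML mice were profiled by bulk mRNA-seq with paired reads of 101 bases. Per the study's methods and the submitters' processing notes, the authors trimmed the reads with Trimmomatic and FASTP, aligned them to mm10 with STAR 2.6.0 and counted them per gene with HTSeq 0.11.1. The deposited table holds raw read counts for 24091 genes, beside the coordinates of each gene and its length in kilobases, and the strand setting of the counting is not given in the sources used here. Other experiments of the study were not analysed here.

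The counts were analysed in R 4.3.3 with edgeR 4.0.16. Genes were kept by filterByExpr (12248 genes), scaled by TMM and tested for BC CML against CP CML with the functions glmQLFit (robust) and glmQLFTest, a quasi-likelihood test, and Benjamini-Hochberg adjustment at 0.05. The study's own test was the likelihood ratio test, which was run as an alternative. The standard error was taken from the fold change and the F statistic. CPM used the TMM-scaled library sizes, and RPKM divided CPM by the deposited gene length. On simulated counts for 12183 genes of this comparison and a log2 change of 1 in 200 of them, this test recovered 181 (90.5%) with 7 other calls. Replicates differed by more than sampling noise (chi-square per degree of freedom 3.01 to 22.7). Depth was 15703702 to 19914531 reads per library, and statements on 0 reads cover counting error only.

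The 7 members and all gene lists were chosen with earlier results of these data known. Named genes were the members, the 4 largest rises and 4 largest falls on the pathway lists among called genes with a mean of at least 1 CPM, 10 relatives whatever their values (Bst1, Adora2b, Adora3, Enpp1, Slc29a1, P2rx7, Pnp, Dpp8, Dpp9 and Ahcy), marker genes, and the most closely correlated genes, of which that of Dpp4 is not reported here. The nearest tested genes on the chromosome were chosen by position, a step added after values were seen. Matches were searched in the longest 3′UTR per gene of GENCODE release 21 (GRCm38, the build of mm10), and RefSeq promoter windows were found for 6 of the 7 members. As alternatives, DESeq2 1.42.0, scaling by RLE or by library size only, other filters (none, or over 1 CPM in 6 or more libraries), blocking on the replicate number and omission of each mouse were also tried. Summed levels of other marker lists were 2517 to 2949 CPM in CP CML and 2882 to 3191 CPM in BC CML for T cells, 264.5 to 320.2 and 204.2 to 309.3 CPM for follicular helper T cells, 80.9 to 140.7 and 68.8 to 92.1 CPM for plasma cells, and 15.2 to 62.9 and 41.4 to 71.7 CPM for erythroid cells.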

Additional observations from a re-analysis of the deposited data

Results flagged for a closer look

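Of 70 groups of values examined for a sample far from the others (the levels of the members and named pathway genes, the summed marker levels and the total reads, in each group), 1 stood out, where chance alone gives about 3.5 (1 in 20). BC CML replicate 2 had a total of 16145537 reads, and the nearest other BC CML mouse had 18319039, a gap that took up 0.668 of the range of the group. No level of a member was far from the others in this sense. Without this mouse the calls of the 7 genes were the same ones.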

How the results depend on the processing

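The directions of the 7 genes were kept under all 21 alternatives, and the calls of Nt5e, Entpd1, Adora2a, Ada, Adk and Cd38 with them. Dpp4 did not pass with the quasi-likelihood test (log2 fold change -0.18, adjusted p = 0.0502) and passed under 3 alternatives, with edgeR's likelihood ratio test (-0.18, adjusted p = 0.0412), DESeq2 (-0.17, adjusted p = 0.0421) and library size alone (-0.19, adjusted p = 0.0451). Leaving out 1 mouse gave it log2 fold changes from -0.23 to -0.13 (adjusted p 0.0163 to 0.124), and it passed without CP CML replicate 5 (-0.21) or 6 (-0.20) or BC CML replicate 3 (-0.23) or 5 (-0.20). With a mouse left out, log2 fold changes ran from 0.60 to 0.71 for Nt5e, 1.60 to 1.78 for Entpd1, 0.34 to 0.40 for Adora2a, 1.07 to 1.20 for Cd38 and -1.73 to -1.60 for Adk. Slc29a1 changed sign in 4 of these fits, within -0.0589 to 0.024 (0.0134 without CP CML replicate 7, 0.0004 without BC CML replicate 1, 0.007 without BC CML replicate 4 and 0.024 without BC CML replicate 6). Ahcy lost its call in 6 of them, without CP CML replicate 2, 5 or 8 or BC CML replicate 1, 2 or 4, with log2 fold changes from -0.16 to -0.11 (adjusted p 0.0522 to 0.0923). Bst1 had no value under the filter of more than 1 CPM. Of all tested genes, 7318 to 8719 passed under the alternatives.

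The groups share the replicate numbers 1 to 6, but the mice are different animals, and same-numbered mice did not deviate together (correlations from -0.30 to 0.38 in the 6 pairs). In the fit with a replicate block, 5 members passed, Dpp4 had a log2 fold change of -0.13 (adjusted p = 0.26), and 7318 genes passed in place of 7986.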
